A study of Mus musculus with 11 samples.

Results

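The miR-125 family comprised 5 mature miRNAs of the 1966 listed for small RNA sequencing of mouse embryonic stem cells. The members are mmu-miR-125a-5p, mmu-miR-125a-3p, mmu-miR-125b-5p, mmu-miR-125b-1-3p and mmu-miR-125b-2-3p, written without the species prefix from here on. They were taken by name as the arms of the Mir125a, Mir125b-1 and Mir125b-2 hairpins, and the arms of the clustered neighbours miR-99b and let-7e were set beside them. The 11 libraries compared states of DGCR8, which binds primary miRNA transcripts and holds them for the nuclease Drosha. Induced E518K libraries (clones 8, 13 and 15, n = 3) came from cells labelled DGCR8 E518K/E518K and transfected with the vector pSB ET iE-FlagDGCR8-E518K. Induced KO libraries (n = 3) came from non-transfected DGCR8 -/- cells, all labelled clone 261. Induced wild-type libraries (clones 10, 12 and 16, n = 3) came from cells labelled DGCR8 wt/wt and transfected with pSB ET iE-FlagDGCR8-wt. Both vectors went in together with pCMV(CAT)-SB100X. These 9 libraries followed 48 h with 300 ng/mL doxycycline, also in the KO. E518K clone 8 and wild-type clone 10 each had 1 further library without doxycycline. All lines carried the strain label NBA1-19349, grew without feeders in 2i medium with LIF, and each vector line was 1 clone. The labels do not tell whether separate cultures stand behind the 3 KO libraries, so p-values measure only the spread between these samples, which may be technical.

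miRNAs are released from primary transcripts by Drosha with DGCR8, trimmed by Dicer and loaded into Argonaute, where bases 2 to 8, the seed, pair with target transcripts. miR-125 is the vertebrate counterpart of lin-4, the founding miRNA of Caenorhabditis elegans, and like let-7 it is known to repress Lin28a, an RNA-binding protein of stem cells. In mouse embryonic stem cells the family is not among the dominant miRNAs, and it is best known from neural and blood cells.

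The sequences, from RefSeq for GRCm38.p6, show which arms share a seed, set in capitals. All 5 members matched by name.
miR-125a-5p: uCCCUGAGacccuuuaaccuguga
miR-125b-5p: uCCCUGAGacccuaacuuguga
miR-351-5p: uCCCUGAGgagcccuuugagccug
miR-125a-3p: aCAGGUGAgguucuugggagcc
miR-125b-1-3p: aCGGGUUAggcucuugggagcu
miR-125b-2-3p: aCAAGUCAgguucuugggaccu
The 5p arms of miR-125a (24 bases) and miR-125b (22 bases) were identical over their first 13 bases and at 21 aligned positions in all. miR-351-5p, from chromosome X, shared the seed but only the first 8 bases. miR-6367 and miR-6394 also shared the seed and had 0 counts in every library. The 3p arms had 3 different seeds. The miR-125b-5p sequence is the same at Mir125b-1 and Mir125b-2, so its counts cannot be assigned to a hairpin, whereas the 3p arms tell the hairpins apart.

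Mir125a (chr17:17830812-17830879, plus strand) is the last of 3 hairpins within 1 host gene, Spaca6. It follows Mir99b (chr17:17830188-17830257) and Mirlet7e (chr17:17830352-17830444). Only 94 bases separate Mir99b from Mirlet7e. Mir99b and Mirlet7e lie in an intron of Spaca6, and Mir125a overlaps an exon of 1 of its noncoding transcripts. A miRNA gene on the minus strand, Gm25927, covers Mirlet7e, and no source used here states the counting strand, so let-7e counts are uncertain. Mir125b-1 (chr9:41581926-41582002) and Mir125b-2 (chr16:77646273-77646343) lie in introns of the long noncoding RNAs 3110039I08Rik (Mir100hg in RefSeq) and Mir99ahg, farther from their partners. Mir125b-1 is 45114 bases after Mirlet7a-2, which follows Mir100, and Mir125b-2 is 46522 bases after Mirlet7c-1, which follows Mir99a. Mir125b-1 also lies in an intron of Gm49317 and overlaps an exon of the sense-intronic transcript Gm28119, and the end of Mir125b-2 overlaps an exon of C130023A14Rik.

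The hairpins below show where the arms (capitals) sit, since DGCR8 and Drosha act on the hairpin and not on the mature miRNA.
Mir125a: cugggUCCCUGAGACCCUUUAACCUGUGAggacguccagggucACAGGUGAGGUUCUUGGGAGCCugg
Mir125b-1: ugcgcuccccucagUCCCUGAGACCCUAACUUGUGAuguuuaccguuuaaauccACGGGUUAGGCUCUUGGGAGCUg
Mirlet7e: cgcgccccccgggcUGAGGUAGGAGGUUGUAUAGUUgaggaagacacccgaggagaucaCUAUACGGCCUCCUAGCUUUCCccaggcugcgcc
Mir125a had 14 bases between its arms, Mir125b-1 18 and Mirlet7e 23, where the median of 644 mouse hairpins with both arms annotated was 16. The letters UGU, a motif of the apical region known to be bound by DGCR8, stood between the arms of Mir125b-1 and not of Mir125a or Mirlet7e, and were present in 31.5% of those 644 hairpins (searched on the strand of the hairpin). A match is only a description of these letters.

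Counts were scaled to library size as CPM, with library sizes adjusted by the trimmed mean of M-values (TMM). Total miRNA counts ran from 1050564 to 1797240 in induced E518K, from 166676 to 208846 in KO and from 3394216 to 6128734 in induced wild type, so the KO values have the least depth. CPM is a share of the remaining miRNAs: over all 730 miRNAs tested the median log2 change was -0.14 in E518K and -3.54 in KO against wild type. With the authors' scaling these medians were -0.19 and -5.19, with total counts 0.21 and -2.03, with DESeq2 -0.30 and -3.11, and with library sizes taken from DGCR8-independent miRNAs -2.90 and -8.23. The last of these scalings uses miRNAs known to be made without DGCR8, such as miR-320 and miR-484. Fewer producing cells and less miRNA per cell cannot be told apart here. Arms of the miR-290 cluster, which marks mouse embryonic stem cells, held 15.6% to 18.0% of miRNA counts in induced E518K, 0.124% to 0.369% in KO and 34.1% to 39.4% in wild type. Most low counts were even (90.3% of counts from 1 to 40), for a reason not stated, as if molecules entered the count 2 times. A count of 0 was therefore read as below a floor of 6 counts (3 small RNAs), but it entered means and tests as 0. That floor is 3.93 to 6.04 CPM in induced E518K, 12.8 to 18.3 CPM in KO and 1.11 to 2.94 CPM in induced wild type. Messenger RNA of Dgcr8 was not measured in these libraries. Of the 5 members, 4 passed the low-count filter, and none shared its counts with another miRNA within 2%.

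In induced E518K cells miR-125b-5p and miR-125b-1-3p were higher than in wild type, except with DGCR8-independent scaling (log2 change -1.47 and -0.069), and miR-125a-5p was not. Of the 4 tested members, 2 rose, 0 fell and 2 did not pass the test (edgeR quasi-likelihood test, Benjamini-Hochberg threshold 0.05). Among all 730 tested miRNAs 63.6% passed in this comparison, 28.2% higher and 35.3% lower. The 4 members had a median log2 change of 0.50, beside -0.14 over all tested miRNAs.

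miR-125b-5p, the guide arm of both miR-125b hairpins, had 622, 402 and 310 CPM in E518K clones 8, 13 and 15, against 112, 251 and 172 CPM in wild-type clones 10, 12 and 16. All 3 E518K libraries lay above all 3 wild-type libraries. The mean was 445 ± 160 CPM (SD) in E518K, against 178 ± 69.6 CPM in wild type (n = 3 each). The log2 change was 1.32 ± 0.39 (SE, edgeR adjusted p = 0.0017). This call was lost without wild-type clone 10 (0.94, edgeR adjusted p = 0.090) and without E518K clone 8 (1.10, edgeR adjusted p = 0.071).

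miR-125b-1-3p, the passenger arm of the Mir125b-1 hairpin, had 86.4, 41.6 and 105 CPM in E518K clones 8, 13 and 15, against 5.89, 20.3 and 9.08 CPM in wild-type clones 10, 12 and 16. The groups did not overlap, where 25.8% of tested miRNAs were higher without overlap. The log2 change was 2.69 ± 0.51 (SE, edgeR adjusted p = 6.0e-07).

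miR-125a-5p, the guide arm of Mir125a, had 134, 162 and 102 CPM in E518K clones 8, 13 and 15, against 180, 275 and 215 CPM in wild-type clones 10, 12 and 16. The E518K libraries lay below the wild-type libraries, as 38.8% of tested miRNAs did without overlap (on the authors' scale the groups overlapped), but the difference did not pass the test (log2 change -0.75 ± 0.41, edgeR adjusted p = 0.099). It passed with DESeq2 (-0.89, DESeq2 adjusted p = 0.0080). miR-125a-3p, its passenger arm, had 10.5, 4.16 and 6.04 CPM in E518K clones 8, 13 and 15, against 6.87, 10.9 and 8.34 CPM in wild-type clones 10, 12 and 16. These groups overlapped (log2 change -0.31 ± 0.66, edgeR adjusted p = 0.68). With DGCR8-independent scaling both arms of Mir125a passed as lower (-3.54 for miR-125a-5p and -3.08 for miR-125a-3p).

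miR-125b-2-3p was close to absent from every library and was not tested. It had 1 count over the 3 induced E518K libraries, 2 counts over the KO, 0 counts over the 3 wild-type libraries, and 6 counts in untreated wild type. The other passenger arm, miR-125b-1-3p, had 286 counts over induced E518K, 39 over KO and 128 over induced wild type. The counts that tell the miR-125b hairpins apart were thus nearly all on the Mir125b-1 side, though a guide arm need not follow its passenger arm. The log2 ratio of miR-125b-5p to miR-125b-1-3p was 2.56 ± 0.89 in induced E518K, 4.45 ± 0.20 in KO and 4.04 ± 0.36 in induced wild type (SD, n = 3 each). Every induced E518K library lay below every KO and induced wild-type library on this ratio, which was not tested. The untreated wild-type library, at 2.53, lay within the range of induced E518K. The untreated E518K library lay within the range of KO.

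**Figure D1:**
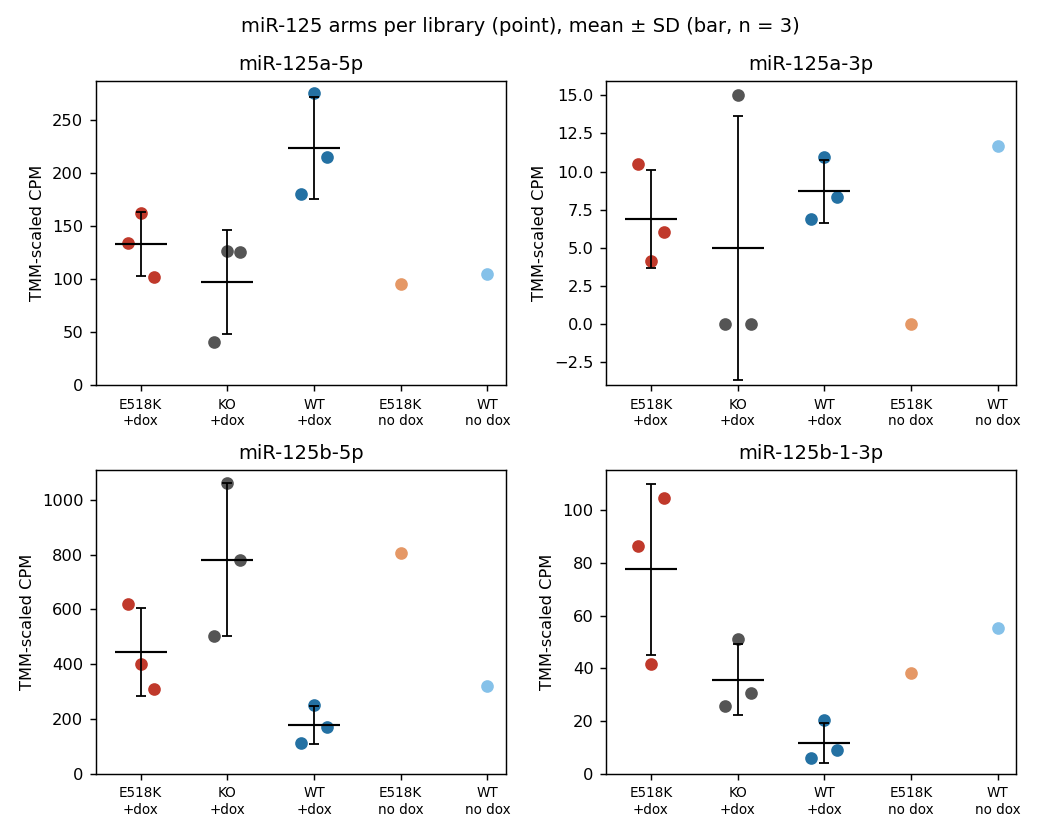
TMM-scaled CPM (vertical axes, starting near 0) of the 4 tested miR-125 arms, with 1 point per library, the mean as a line and the SD as a bar for groups of 3. Both miR-125b arms lie higher in induced E518K than in induced wild type, while miR-125a-5p lies between 102 and 162 CPM in E518K and between 180 and 275 CPM in wild type.

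The scaling between libraries moves these levels, but not the ratio of both 5p arms within a library. miR-125a-5p held 17.7%, 28.7% and 24.7% of the summed miR-125a-5p and miR-125b-5p counts in E518K clones 8, 13 and 15, against 61.7%, 52.3% and 55.6% in wild-type clones 10, 12 and 16. The mean share was 23.7% ± 5.55 (SD) in E518K, against 56.5% ± 4.76 in wild type (n = 3 each). In KO it was lower again, with 7.45%, 10.6% and 13.8%, a mean of 10.6% ± 3.18. No induced group overlapped with another on this share. The log2 ratio of miR-125a-5p to miR-125b-5p differed by -2.09 between E518K and wild type, by -3.50 between KO and wild type and by 1.41 between E518K and KO. Each gave p = 0.1 in a two-sided exact permutation test, the smallest that 3 against 3 allows, and 0.17 after adjustment over the 10 ratios compared.

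**Figure D2:**
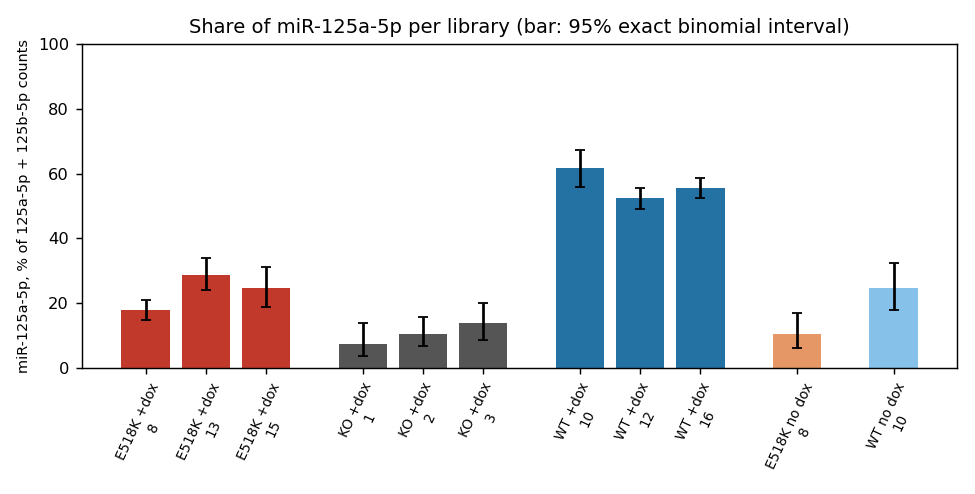
Share of miR-125a-5p in the summed counts of miR-125a-5p and miR-125b-5p (vertical axis, percent) for each library, with exact 95% binomial intervals on counts divided by 2. The 3 induced E518K libraries sit between 17.7% and 28.7%, the 3 KO libraries between 7.45% and 13.8% and the 3 induced wild-type libraries between 52.3% and 61.7%.

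All 3 tested arms of the clustered neighbours fell in E518K, where 35.3% of all tested miRNAs did, with the same sign under all 5 scalings. miR-99b-5p, the most abundant arm of the cluster, had 665, 410 and 768 CPM in E518K clones 8, 13 and 15, against 4100, 3355 and 2709 CPM in wild-type clones 10, 12 and 16 (log2 change -2.46 ± 0.39, edgeR adjusted p = 3.4e-09). miR-99b-3p changed alike, by -2.41 ± 0.44 (edgeR adjusted p = 2.7e-07). let-7e-5p had a mean of 115 ± 37.6 CPM (SD) in E518K, against 254 ± 113 CPM in wild type (n = 3 each), a log2 change of -1.14 ± 0.41 (edgeR adjusted p = 0.010). With total counts let-7e-5p no longer passed (-0.71), nor when E518K clone 8, 13 or 15 or wild-type clone 12 or 16 was left out (edgeR adjusted p from 0.062 to 0.30). let-7e-3p was not tested and had 6, 0 and 0 counts in E518K, against 12, 20 and 32 counts in wild type.

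Within a library, miR-125a-5p and let-7e-5p both stood closer to miR-99b-5p in E518K. The log2 ratio of miR-125a-5p to miR-99b-5p was -2.19 ± 0.80 (SD) in E518K, against -3.92 ± 0.51 in wild type (n = 3 each), a difference of 1.74. Every E518K library exceeded every wild-type library (two-sided exact permutation p = 0.1, adjusted 0.17). The ratio to let-7e-5p overlapped, with 0.23 ± 0.62 in E518K and -0.12 ± 0.32 in wild type (exact permutation p = 0.6), and its difference of 0.35 was gone without E518K clone 13 (-0.00057). As shares of the 3 5p arms, miR-125a-5p held 14.0%, 24.7% and 10.5% in E518K clones 8, 13 and 15, against 4.04%, 6.85% and 6.89% in wild-type clones 10, 12 and 16. The guide-to-passenger ratio of Mir125a overlapped too, with a log2 ratio of 4.35 ± 0.84 in E518K and 4.68 ± 0.03 in wild type (exact permutation p = 0.5). For let-7e-5p to miR-99b-5p the log2 ratio was -2.42 ± 0.43 (SD) in E518K and -3.80 ± 0.68 in wild type. These groups did not overlap, and that ratio was not tested.

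**Figure D3:**
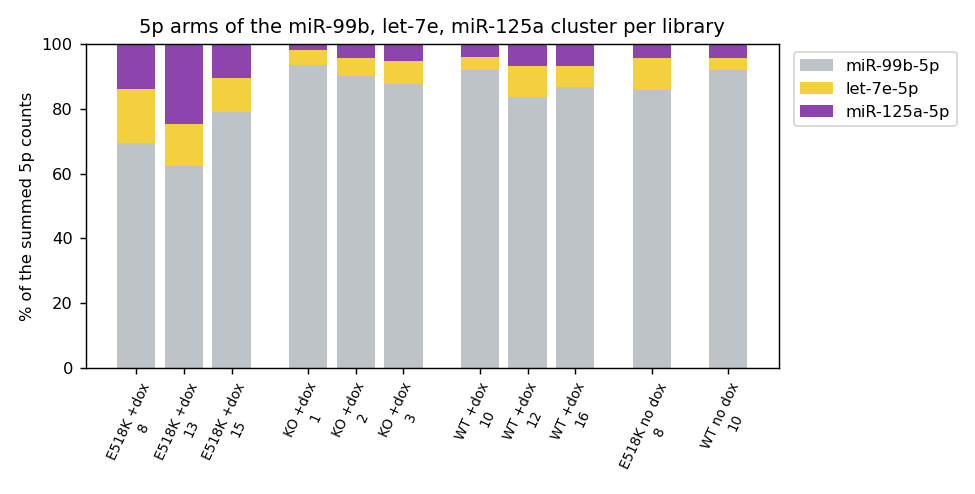
Makeup of the 5p counts of the miR-99b, let-7e and miR-125a cluster in each library (stacked bars, percent of the summed 5p counts). miR-125a-5p holds between 10.5% and 24.7% in induced E518K, between 1.98% and 5.15% in KO and between 4.04% and 6.89% in induced wild type.

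Without DGCR8 the family did not vanish from the libraries, and miR-125b-5p took a larger share of what was left. Of the 4 tested members, 2 were higher in KO than in wild type, 1 lower, and 1 did not pass, where 88.4% of tested miRNAs passed, 30.0% higher and 58.4% lower. On CPM, 2 members were higher without overlap and 1 lower, where the shares of tested miRNAs were 24.9% and 60.0%. The higher calls of miR-125b turn with the DGCR8-independent scaling and the lower call of miR-125a-5p turns with total counts, with values beside each arm. This comparison shares the wild-type libraries with the one above. All 4 members had log2 changes above the median of all tested miRNAs, -3.54, a value that by definition splits the tested miRNAs evenly. The median of the 4 members was 0.32. For miR-125a-3p the position rests on 5 counts in KO library 2. Without that library its log2 change was -6.84, below the median of -3.79 found then.

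miR-125b-5p had 503, 1062 and 781 CPM in the KO libraries, against 112, 251 and 172 CPM in wild-type clones 10, 12 and 16. The groups were far apart (log2 change 2.13 ± 0.40, edgeR adjusted p = 2.7e-07). The raw counts behind these levels were 236, 354 and 256 in KO, against 228, 826 and 928 in wild type. On the authors' scaled values, where each group has its own total, miR-125b-5p averaged 135 ± 42.6 pRPM in KO and 112 ± 43.7 pRPM in wild type, and the groups overlapped. With that scaling the log2 change was 0.27 and no longer passed (edgeR adjusted p = 0.59), and scaled by DGCR8-independent miRNAs it turned to -3.15.

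miR-125b-1-3p had 25.6, 51.0 and 30.5 CPM in KO, against 5.89, 20.3 and 9.08 CPM in wild type (log2 change 1.56 ± 0.55, edgeR adjusted p = 0.0057). The groups did not overlap, but the KO values rest on 12, 17 and 10 counts. The call was lost without KO library 1 (edgeR adjusted p = 0.066) and with counts divided by 2 (0.25), and the sign turned with the authors' scaling (-0.23) and with the DGCR8-independent scaling (-3.66).

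miR-125a-5p had 40.5, 126 and 125.1 CPM in KO (19, 42 and 41 counts), against 180, 275 and 215 CPM in wild type (log2 change -1.22 ± 0.43, edgeR adjusted p = 0.0063). Every KO library was below every wild-type library. The call was lost without KO library 2 or 3 and without wild-type clone 10 or 12 (edgeR adjusted p from 0.12 to 0.34), and with total counts the value was 0.36. On the authors' scale the level was 16.6 ± 7.67 pRPM in KO and 141 ± 41.1 pRPM in wild type (log2 change -3.10). miR-125a-3p had 0, 5 and 0 counts in KO, against 14, 36 and 45 in wild type, and did not pass (log2 change -0.93 ± 0.91, edgeR adjusted p = 0.33). It passed as lower with the authors' scaling (-2.73, edgeR adjusted p = 0.0045), with DGCR8-independent scaling (-6.06), with counts divided by 2 (-2.10) and without KO library 2, and turned with total counts (0.67) and without KO library 3 (0.18). Its wild-type mean of 8.71 CPM was below the KO floor.

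Along the cluster the arms of miR-99b parted in KO. miR-99b-3p fell (log2 change -3.05 ± 0.49, edgeR adjusted p = 1.3e-09), while miR-99b-5p did not pass, with 2195 ± 313 CPM in KO and 3388 ± 696 CPM in wild type (log2 change -0.63, edgeR adjusted p = 0.10). That value passed as lower with the authors' scaling (-2.46), with DGCR8-independent scaling (-5.84), with counts divided by 2 (-1.49) and without KO library 1 (-1.21). It passed as higher with total counts (1.00). Without KO library 2 or 3 or wild-type clone 10 or 12 its sign turned (0.010 to 0.11) and it did not pass. The log2 ratio of 5p to 3p was 6.08 ± 0.66 in KO and 3.54 ± 0.06 in wild type, with 3.47 ± 0.10 in induced E518K, 6.20 in untreated E518K and 3.54 in untreated wild type. let-7e-5p had a log2 change of -0.88 ± 0.42 (edgeR adjusted p = 0.042), a call lost without the low-count filter and without KO library 2 or 3 or wild-type clone 10 or 16. Its sign turned with total counts (0.77) and without wild-type clone 12 (0.075). The log2 ratio of miR-125a-5p to miR-99b-5p was -4.66 ± 0.79 in KO and -3.92 ± 0.51 in wild type, overlapping (exact permutation p = 0.3).

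**Figure D4:**
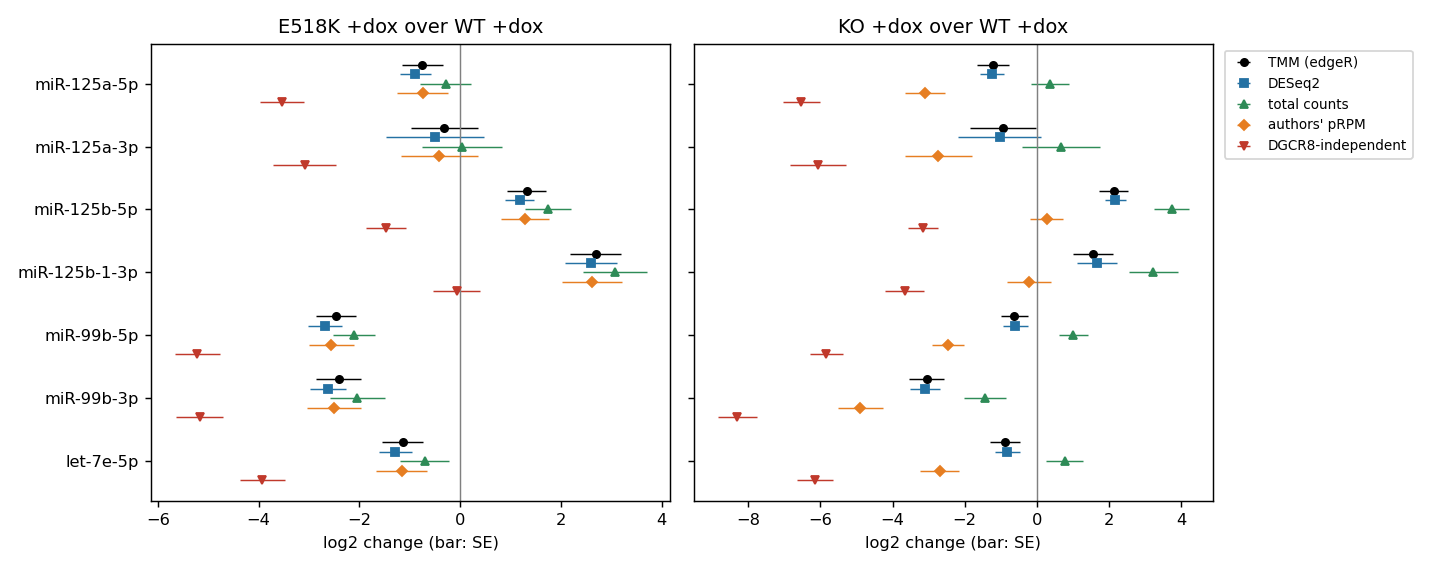
Log2 change (horizontal axes, bars are SE) of miR-125 arms and their neighbours in induced E518K over induced wild type (left) and KO over induced wild type (right) under 5 scalings. miR-125b-5p over wild type runs from -1.47 to 1.75 in E518K and from -3.15 to 3.73 in KO, so that its sign depends on the scaling.

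Induced E518K cells were also set against KO cells. The endogenous Dgcr8 state of the vector lines is not stated beyond the genotype labels. Of the 4 tested members 1 rose, 0 fell and 3 did not pass, where 68.1% of tested miRNAs passed, 41.9% higher and 26.2% lower, with a median log2 change of 1.35 over all tested. No member was free of overlap between these groups on CPM, where 42.7% of tested miRNAs were higher and 24.8% lower without overlap. miR-125b-1-3p averaged 77.6 ± 32.5 CPM in E518K and 35.7 ± 13.5 CPM in KO (log2 change 1.13 ± 0.53, edgeR adjusted p = 0.048). That call was lost in 6 alternatives, with E518K clone 8 or 13 or KO library 2 or 3 left out, with DESeq2 and with no low-count filter (adjusted p from 0.11 to 0.63). Its sign turned with total counts (-0.16).

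miR-125a-5p averaged 133 ± 30.2 CPM in E518K and 97.2 ± 49.1 CPM in KO (log2 change 0.47 ± 0.44, edgeR adjusted p = 0.33). It passed with the authors' scaling, at 2.35 (edgeR adjusted p = 3.6e-05), and without E518K clone 15, at 1.47 (edgeR adjusted p = 0.0062). It also passed with DGCR8-independent scaling, at 2.99 (edgeR adjusted p = 5.0e-11), and with counts divided by 2, at 1.38 (edgeR adjusted p = 0.0010). Its sign turned with total counts (-0.65), without KO library 2 (-0.050) and without E518K clone 8 (-0.092) or 13 (-0.24). miR-125b-5p averaged 445 ± 160 CPM in E518K and 782 ± 280 CPM in KO (log2 change -0.81 ± 0.39, edgeR adjusted p = 0.053), and the groups overlapped. It passed as lower with total counts (-1.98, edgeR adjusted p = 3.6e-05), with DESeq2 (-0.99, DESeq2 adjusted p = 0.0017), with no low-count filter (-0.90) and without KO library 2 or 3 or E518K clone 8 or 13 (-1.35 to -1.69), and it turned to 0.20 without E518K clone 15. It passed as higher with the authors' scaling (1.03, edgeR adjusted p = 0.0498) and with DGCR8-independent scaling (1.67). miR-125a-3p, with 27 counts in all over E518K and 5 over KO, did not pass (log2 change 0.62 ± 0.97, edgeR adjusted p = 0.57). It passed as higher with the authors' scaling (2.31, edgeR adjusted p = 0.032) and with DGCR8-independent scaling (2.97, edgeR adjusted p = 0.00068), and turned with total counts (-0.63).

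Of the 3 tested neighbours 1 fell against KO, miR-99b-5p (log2 change -1.84 ± 0.38, edgeR adjusted p = 5.1e-06), a call lost with the authors' scaling (-0.095) and turned with DGCR8-independent scaling (0.62). In this comparison 26.2% of all tested miRNAs were lower and 41.9% higher. let-7e-5p did not pass (-0.26) but passed as lower with total counts (-1.47) and as higher with the authors' scaling (1.53) and with DGCR8-independent scaling (2.23). miR-99b-3p did not pass (0.64) but passed as higher with the authors' scaling (2.40), with DGCR8-independent scaling (3.13), with counts divided by 2 (1.54) and without E518K clone 15 (1.30). The log2 ratio of miR-125a-5p to miR-99b-5p differed by 2.47 and that to let-7e-5p by 0.86, each higher in E518K without overlap (exact permutation p = 0.1). For let-7e-5p to miR-99b-5p it was also higher without overlap, at -2.42 in E518K and -4.03 in KO on average, and was not tested.

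The untreated libraries show the vectors without inducer, with 1 library each and no test. Intervals are exact Poisson intervals on counts divided by 2 and cover counting error only. In E518K clone 8, miR-125a-5p had 134 CPM (109 to 162) with doxycycline, against 95.3 CPM (53.3 to 157) without. In wild-type clone 10 it had 180 CPM (155 to 209) with doxycycline, against 105 CPM (73.5 to 145) without. The intervals overlap in the E518K clone and not in the wild-type clone. miR-125a-3p had 16 counts in induced E518K clone 8 and 0 untreated, but total miRNA counts there were 1797240 and 264507. Its induced level of 10.5 CPM was below the untreated floor of 19.1 CPM, so these libraries cannot show a change. In wild-type clone 10 it had 14 counts induced and 8 untreated, or 6.87 CPM (2.76 to 14.1) against 11.7 CPM (3.18 to 29.9), with overlapping intervals. miR-125b-5p had 622 CPM (567 to 680) in E518K clone 8 with doxycycline, against 807 CPM (673 to 960) without. The direction depends on the scaling, since on the authors' scale the same libraries had 361 pRPM with doxycycline, against 133 pRPM without. In wild-type clone 10 it had 112 CPM (92.3 to 134) with doxycycline, against 321 CPM (264 to 387) without, and was also lower on the authors' scale (63.0 pRPM with doxycycline, against 106 pRPM without). The share of miR-125a-5p in both 5p arms was 17.7% in induced E518K clone 8, against 10.6% untreated, and 61.7% in induced wild-type clone 10, against 24.7% untreated. Untreated E518K thus had a share within the KO range of 7.45% to 13.8%. Untreated wild type lay above that range and within the induced E518K range of 17.7% to 28.7%.

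Over the 5 groups the miR-125a-5p level in CPM ran, from high to low, from 223 CPM in induced wild type through 133 in induced E518K, 105 in untreated wild type and 97.2 in KO to 95.3 in untreated E518K. Among these the induced wild-type libraries stood clear of the induced E518K and KO libraries, although on the authors' scale they overlapped with induced E518K. For miR-125b-5p the order in CPM was nearly the opposite, with 807 CPM in untreated E518K, 782 in KO, 445 in induced E518K, 321 in untreated wild type and 178 in induced wild type. Of these neighbours, induced E518K overlapped with KO, and the untreated wild-type value lay between the induced E518K and induced wild-type means. That order does not hold on the authors' scale, where induced E518K was highest with 275 ± 112 pRPM, ahead of KO with 135 ± 42.6, untreated E518K with 133, induced wild type with 112 ± 43.7 and untreated wild type with 106.

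Summed over the 3 arms with the seed CCCUGAG that were detected, the seed level was 646 ± 184 CPM in induced E518K, 885 ± 324 CPM in KO and 428 ± 103 CPM in induced wild type. On the authors' scale KO was the lowest, with 400 ± 145 pRPM in induced E518K, 153 ± 49.1 pRPM in KO and 271 ± 84.9 pRPM in induced wild type. miR-351-5p, an X-linked miRNA, made up 10.9% ± 4.36 of this sum in E518K, 0.660% ± 1.14 in KO and 6.98% ± 4.91 in wild type. Its level was 68.9 ± 26.6 CPM in E518K and 26.5 ± 14.6 CPM in wild type (log2 change 1.39 ± 0.49, edgeR adjusted p = 0.0093). That call was lost with DESeq2, with the authors' scaling and without wild-type clone 12 or E518K clone 8, and its sign turned with DGCR8-independent scaling (-1.36). All 5 miR-125 members together held 0.0597% ± 0.0200 of miRNA counts in E518K, 0.187% ± 0.0616 in KO and 0.0283% ± 0.00934 in wild type.

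The partners of the miR-125b hairpins were described by level only. miR-100-5p had 33.3 to 91.6 CPM in induced E518K, 1430 to 2143 CPM in KO and 63.9 to 118 CPM in induced wild type. miR-99a-5p had 13.3 to 36.3 CPM in induced E518K, 354 to 480 CPM in KO and 5.40 to 10.4 CPM in induced wild type. Both were thus abundant in KO libraries beside miR-125b-5p, and in the untreated E518K library they had 1722 and 283 CPM. Their passenger arms (miR-100-3p and miR-99a-3p) were at 0 in KO and at most 1.31 CPM in the other libraries. let-7c-5p, made from Mirlet7c-1 beside Mir99a and from Mirlet7c-2, had 509 to 1036 CPM in E518K, 350 to 531 CPM in KO and 95.2 to 228 CPM in wild type. let-7a-5p, from several hairpins, had 13554 to 22771 CPM in E518K, 337 to 689 CPM in KO and 549 to 2603 CPM in wild type. On the authors' scale let-7c-5p overlapped between KO (77.2 ± 10.3 pRPM) and wild type (102 ± 42.8 pRPM). There let-7a-5p was lower in KO without overlap (92.9 ± 25.5 against 798 ± 502 pRPM), while miR-100-5p and miR-99a-5p stayed higher in KO than in wild type. let-7a-1-3p had 30.8 to 62.4 CPM and let-7c-2-3p 29.1 to 54.4 CPM in E518K, both 0 in KO, and at most 8.80 and 8.50 CPM in wild type. Both of these arms have the same sequence, so their counts cannot be assigned to a hairpin and are not separate observations. let-7a-2-3p and let-7c-1-3p, which would mark the hairpins next to miR-125b, had 0 and 2 counts over all libraries.

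miR-125b is abundant in many differentiated cells, so 10 miRNAs of other cell types were set beside it. Their summed level was 1155 to 2092 CPM in induced E518K, 3990 to 5801 CPM in KO and 3448 to 5310 CPM in induced wild type, led by miR-143-3p, a miRNA of mesenchyme, in KO and wild type (means of 4575 and 3025 CPM) and by the neural miR-9-5p in E518K (939 CPM). The neural miR-124-3p averaged 0 CPM in KO and 71.3 in wild type, and miR-9-5p 38.6 and 747. The liver miRNA miR-122-5p had 54.0 to 91.5 CPM in KO, against 1.21 to 3.34 CPM in wild type. Of the muscle miRNAs, miR-1a-3p averaged 14.8 CPM in KO and 15.8 in wild type, and miR-133a-3p 12.0 and 0.40. Among blood miRNAs these means were 53.4 and 129 for miR-142a-3p, 2.03 and 61.9 for miR-142a-5p, and 0 and 0.73 for miR-451a. miR-145a-5p, also of mesenchyme, averaged 31.5 CPM in KO and 85.1 in wild type. In induced E518K the means were 19.7 CPM for miR-124-3p, 12.9 for miR-122-5p, 20.3 for miR-1a-3p and 3.33 for miR-133a-3p. There miR-142a-3p averaged 74.6 CPM, miR-142a-5p 126, miR-451a 0.55, miR-143-3p 532 and miR-145a-5p 5.50. Single markers in E518K thus lay on both sides of wild type. The KO floor was 12.8 to 18.3 CPM. The part of these miRNAs in the miR-125b level was not tested.

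By Pearson's r of log2 (CPM + 1) over the 11 libraries, the 5 other tested miRNAs most like miR-125a-5p were miR-27a-3p (r = 0.88), miR-1191a (0.85), miR-340-3p (0.84), miR-124b-3p (0.84) and miR-185-5p (0.83). Its own passenger arm had r = 0.59, let-7e-5p 0.63, miR-99b-3p 0.74, miR-99b-5p 0.17 and miR-125b-5p -0.46. These values share libraries, depth and scaling and are given as a description.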

How the data were processed

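Small RNA libraries (NEBNext Multiplex Small RNA kit, total RNA) were described by the labels in 5 groups, taken from the sample titles. The authors deposited a table of raw counts for 1966 mature miRNAs in 11 libraries. The authors also deposited the same table in RPM, named pRPM, in which each library's counts are multiplied by 1 constant. STAR, bedtools and the build GRCm38.p6 are named in the submitters' processing notes; no source used here states versions, trimming, the counting rule or the strand. In pRPM, 100% of values were whole reads within 0.01 and 100% equalled the counts, so the count test on the recovered reads made the same 464, 645 and 497 calls as the main test in E518K against wild type, KO against wild type and E518K against KO. That alternative was chosen after seeing the data. Libraries of a group share 1 pRPM total, whose origin is not stated. A further file was identical to the pRPM file and was not used here.

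Counts were tested with edgeR 4.0.16 in R 4.3.3 (robust quasi-likelihood, TMM, filterByExpr with minimum count 10 and minimum total 15, all 11 libraries in 5 groups), with Benjamini-Hochberg adjustment over 730 miRNAs. SE is the log2 change divided by the square root of F. Alternatives were DESeq2 1.42.0, total counts, pRPM scaling, library sizes from the summed counts of DGCR8-independent miRNAs (13 arms of miR-320, miR-484, miR-702, miR-877, miR-1224, miR-1291, miR-1839 and miR-1983), no filter, only the groups compared, counts divided by 2 and each library left out. Ratios within libraries were compared by two-sided exact permutation tests. The edgeR step was tested on simulated counts. The labels name no molecular identifiers, so the intervals and floors given are for counting error only. No replicate pair was a duplicate: pairs had a chi-square of 9.16 to 325 per degree of freedom. Members, lists and tests were chosen with earlier results of these data known. Named were all members, all arms of their clustered partners, all miRNAs with the seed of miR-125a-5p, and the 5 miRNAs most correlated with it.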

Additional observations from a re-analysis of the deposited data

Results flagged for a closer look

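On CPM and on the authors' scale, miR-125b-1-3p had log2 ratios of opposite sign with doxycycline in the clones of both vectors. In E518K clone 8 it had 86.4 CPM (132 counts) induced, against 38.1 CPM (12 counts) untreated, a log2 ratio of 1.18. The Poisson intervals there overlapped, at 66.8 to 110 CPM induced and 14.0 to 83.0 CPM untreated. In wild-type clone 10 it had 5.89 CPM (12 counts) induced, against 55.4 CPM (38 counts) untreated, a log2 ratio of -3.23. The intervals there were apart, at 2.16 to 12.8 and 33.4 to 86.5 CPM. The summed DGCR8-independent miRNAs had 4212 counts induced and 12508 untreated in this clone, so the size of the fall depends on the scaling. On the authors' pRPM values the log2 ratios were 3.00 and -2.47. Opposite signs on CPM were not particular to this arm, since let-7a-5p had 2.94 in the E518K clone and -1.54 in the wild-type clone. miR-125a-5p (0.49 and 0.78) and miR-125b-5p (-0.38 and -1.52) each kept 1 sign on CPM. Each value rests on 1 library, and the difference was not tested.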

How the results depend on the processing

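The total of miRNAs called stayed within 1.5 times the main count in all 14 alternatives of each comparison. Among them, the alternative on reads recovered from pRPM uses the same counts as the main test, so its total could not differ. The split did not: scaled by DGCR8-independent miRNAs, 12 were higher and 498 lower in E518K against wild type (206 and 258 with TMM), 26 were higher in KO against wild type (219 with TMM) and 30 were lower in E518K against KO (191 with TMM). In the last of these, 61 were lower with the authors' scaling, 126 with counts divided by 2 and 124 without E518K clone 15. In E518K against wild type, 164 were lower without wild-type clone 16. No paired analysis was possible because the groups compared share fewer than 2 replicate numbers: the induced groups share none, and each vector's untreated library pairs with 1 induced library.

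With DGCR8-independent scaling the E518K values against wild type were -3.54 for miR-125a-5p (now past the threshold), -1.47 for miR-125b-5p, -0.069 for miR-125b-1-3p and -1.36 for miR-351-5p. In KO against wild type, miR-125b-5p and miR-125b-1-3p turned to -3.15 and -3.66. In E518K against KO, miR-125a-5p was 2.99 and past the threshold, and miR-125b-5p, miR-99b-5p and let-7e-5p turned to 1.67, 0.62 and 2.23. With the authors' scaling, miR-125b-1-3p in KO against wild type was -0.23. In E518K against KO, that scaling gave 2.35 for miR-125a-5p, 1.03 for miR-125b-5p and 1.53 for let-7e-5p. With total counts, miR-125a-3p was 0.040 in E518K against wild type. In KO against wild type, total counts gave 0.36 for miR-125a-5p, 0.67 for miR-125a-3p, 1.00 for miR-99b-5p and 0.77 for let-7e-5p. In E518K against KO they gave -0.65 for miR-125a-5p, -0.63 for miR-125a-3p, -0.16 for miR-125b-1-3p and -0.60 for miR-99b-3p. With counts divided by 2, miR-125a-5p was 1.38 in E518K against KO (now past the threshold), miR-125b-5p 0.062 and let-7e-5p 0.60. DESeq2 gave -0.89 for miR-125a-5p in E518K against wild type.

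Leaving out 1 library at a time gave, in E518K against wild type, -0.66 to 0.31 for miR-125a-3p and -1.01 to -0.11 for miR-125a-5p. In KO against wild type it gave -1.50 to -0.57 for miR-125a-5p, -6.84 to 0.18 for miR-125a-3p, -1.21 to 0.11 for miR-99b-5p and -1.28 to 0.075 for let-7e-5p. In E518K against KO it gave -0.24 to 1.47 for miR-125a-5p, -0.63 to 6.41 for miR-125a-3p, -1.69 to 0.20 for miR-125b-5p and -1.09 to 0.61 for let-7e-5p. The difference in the log2 ratio of miR-125a-5p to let-7e-5p ran from -0.00057 to 0.58, that to miR-99b-5p from 1.31 to 2.10 and that to miR-125b-5p from -2.29 to -1.84. The cause was not tested. Depth limits the passenger arms, above all in KO.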
